A study of Mus musculus with 60 samples.

Results

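The hippocampus was compared with the brain stem in vehicle injected mice, over all 770 genes of the nanoString nCounter Mouse Neuroinflammation Panel, an assay that counts barcoded probes hybridized to each transcript. Members were the samples labelled hippocampus (10) and brain stem (9) from the vehicle injected groups, 19 of the 56 samples of the series that have values. The animals were female Balb/C mice, 13 weeks old, perfused and dissected 25 days after bilateral injection of cell culture medium into the mammary glands, and they carried no tumor cells. Brains were collected at mid-dark (ZT19, 5 mice) or mid-light (ZT7, 5 mice), where ZT counts the hours from lights on. Since both regions came from the same animals, the hippocampus minus brain stem difference was taken within each mouse, in 4 mid-dark and 5 mid-light mice. Mouse 8 (mid-dark) had no brain stem values and entered only the hippocampus levels.

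The hippocampus is a forebrain structure of densely packed pyramidal and granule neurons whose plastic glutamatergic synapses serve learning and memory. The brain stem holds scattered nuclei crossed by long ascending and descending fibre tracts, so that myelin, the lipid-rich sheath that oligodendrocytes wrap around axons, makes up much of its tissue. Microglia, astrocytes and endothelial cells are present in both regions, and their gene expression is known to vary with location.

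All values are the log2 values the authors deposited after quantile normalization, which forces every sample to the same distribution, so a difference is relative to the other panel genes. A gene was called when limma's adjusted p value for the paired difference was under 0.05, and differences are hippocampus minus brain stem on the log2 scale with their standard error (SE), n = 9 mice. Every sample shares the same ceiling, 15.36, and it was held by the phosphatase gene Ppp3ca in 10 of 10 hippocampus samples, so that gene could go no higher there. At the other end, the Y-linked genes Uty and Kdm5d, which female mice lack, read between -0.37 and 5.09, which is the range of a probe without its target. Both region medians were below 5.09 for 134 genes, of which 36 (26.9%) were called, against 478 (75.2%) of the other 636.

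RNA concentration and purity also moved with region. Concentration was 381.7 to 1744 ng/ul (median 1188.5) in hippocampus and 737.3 to 2976 ng/ul (median 2347) in brain stem, and was lower in hippocampus in 8 of 9 mice (exact sign-flip permutation test, two-sided, p = 0.0117, adjusted p = 0.0176 over 3 measures). The 260/230 ratio was 2.29 to 2.38 in hippocampus and 1.71 to 2.34 in brain stem (exact p = 0.00781, adjusted p = 0.0176), and the 260/280 ratio had medians of 1.97 and 1.96 (exact p = 0.383). Their part in the differences was not tested. Without the mice with a 260/280 ratio under 1.9 in either region, 481 genes were called in the 6 mice that remained. That limit was set on the 260/280 ratio alone, so the count does not bear on concentration or the 260/230 ratio. The brain stem sample of mouse 2 (mid-light) stood apart in single genes. It had the highest values of Camk4 (11.06), Chn2 (11.44) and Reln (9.78) and the lowest value of Slc17a6 (12.52) among the 9 brain stem samples. Camk4, Chn2 and Reln were chosen after their values were seen. On the first principal component that sample, at -12.56, lay within the range of the brain stem samples (-13.38 to -11.48). Its purity was the lowest, with a 260/280 ratio of 1.72 and a 260/230 ratio of 1.71. Without mouse 2, 507 genes were called.

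The expression of 514 genes (66.8% of the panel) differed between the regions, 238 higher in hippocampus (30.9%) and 276 higher in brain stem (35.8%). Of the 514, 379 had the same sign in all 9 mice, and 244 were called with a difference below 0.5 in size. A difference of at least 1, which is a doubling, was reached by 120 called genes (15.6%), 56 higher in hippocampus (7.27%) and 64 higher in brain stem (8.31%). The values of the regions did not overlap for 255 genes (33.1%), 117 with hippocampus above (15.2%) and 138 with brain stem above (17.9%). The median difference over all genes was -0.04, and the first principal component of the 19 samples, with 70.9% of the variance, placed every hippocampus sample on one side and every brain stem sample on the other.

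**Figure D1:**
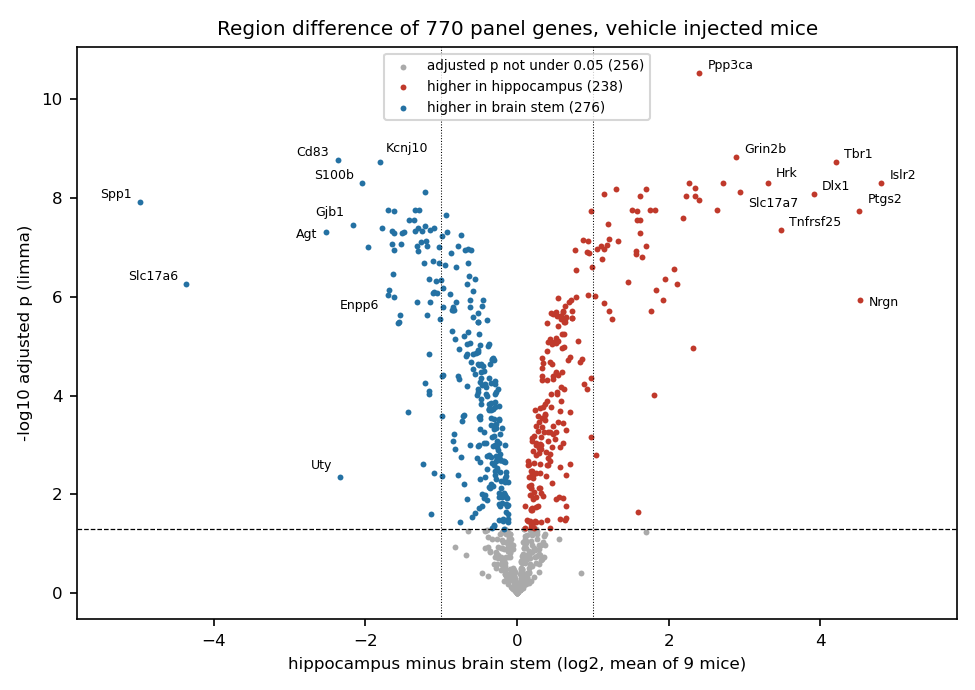
Hippocampus minus brain stem difference of the 770 panel genes in vehicle injected mice (x axis, log2, mean of 9 mice) against -log10 of limma's adjusted p value (y axis), each point a gene. The dashed line marks an adjusted p value of 0.05 and the dotted lines a difference of 1; 238 genes lie above the dashed line on the hippocampus side and 276 on the brain stem side, with Islr2 and Spp1 farthest out.

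Genes of the excitatory synapse were mostly higher in hippocampus. Of 16 measured genes of excitatory synapses and glutamate signalling, 12 were higher in hippocampus, 2 were higher in brain stem and 2 were not called, with a median difference of 1.61. Over the panel, 30.9% of genes were higher in hippocampus and 35.8% in brain stem. Nrgn, which encodes the postsynaptic calmodulin-binding protein neurogranin, was 13.22 to 13.77 (median 13.55) in hippocampus and 7.95 to 10.19 (median 8.43) in brain stem. The regions were far apart, although the brain stem samples fell into a lower set of 5 mice and a higher set of 4 with mice of both phases in each. The difference of Nrgn was 4.52 (SE 0.32, 23.0-fold, adjusted p = 1.15e-06).

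The vesicular glutamate transporters, which load glutamate into synaptic vesicles, went opposite ways. Slc17a7 (VGLUT1), the form used by most cortical and hippocampal neurons, was 12.65 to 13.29 in hippocampus and 9.52 to 10.63 in brain stem, a difference of 2.94 (SE 0.09, 7.67-fold, adjusted p = 7.52e-09). Slc17a6 (VGLUT2), the form used by most subcortical neurons, was 7.20 to 10.05 (median 8.76) in hippocampus and 12.52 to 12.94 (median 12.87) in brain stem, a difference of -4.36 (SE 0.28, 20.5-fold, adjusted p = 5.59e-07). For both transporters the lowest sample of the higher region lay above the highest sample of the other region. The bulk samples cannot tell fewer cells of a type from less RNA per cell, here or in any comparison that follows.

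Glutamate receptor subunits were also split. Grin2b, an NMDA receptor subunit, was 11.93 to 12.36 in hippocampus and 9.03 to 9.36 in brain stem, a difference of 2.88 (SE 0.06, adjusted p = 1.49e-09). Grin2a (2.40, SE 0.08) and the AMPA receptor subunits Gria1 (2.22, SE 0.07) and Gria2 (2.35, SE 0.07) were higher in hippocampus too, each without overlap. The AMPA receptor subunit Gria4 was the exception, at 10.56 to 11.20 in hippocampus and 12.25 to 12.83 in brain stem (-1.64, SE 0.08, adjusted p = 8.7e-08). The metabotropic receptor Grm3, which glia also express, was not called (0.04, SE 0.04, adjusted p = 0.405).

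Camk4, a calcium/calmodulin-dependent kinase, was among the genes set apart in the brain stem of mouse 2. It was 10.53 to 10.80 in hippocampus and 9.27 to 9.94 in the other 8 brain stem samples, against 11.06 in mouse 2, and it was higher in hippocampus in 8 of 9 mice. Its difference was 0.97 (SE 0.17, adjusted p = 0.000693), and 1.13 without mouse 2.

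Calcineurin is the calcium-dependent phosphatase that acts at these synapses, and 3 of its subunits were higher in hippocampus. The catalytic subunit Ppp3ca stood at the ceiling of 15.36 in every hippocampus sample and at 12.90 to 13.01 in brain stem. Its difference of 2.40 (SE 0.03, adjusted p = 2.93e-11) therefore takes its spread from the brain stem alone, and its p value, the smallest of the panel, rests on that. The catalytic subunit Ppp3cb (1.14, SE 0.04) and the regulatory subunit Ppp3r1 (1.30, SE 0.04) were below the ceiling and did not overlap between regions.

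**Figure D2:**
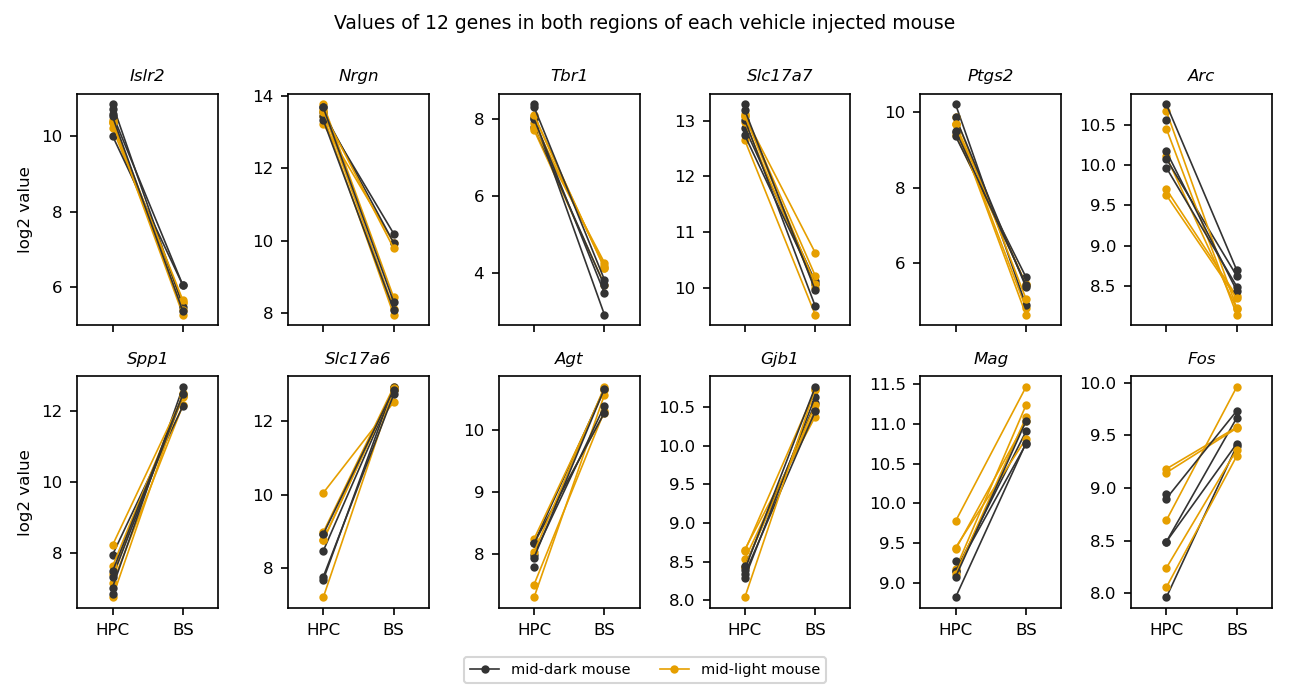
Log2 values (y axis) of 12 genes in hippocampus (HPC) and brain stem (BS), each line joining both regions of a mouse (black mid-dark, orange mid-light; the unjoined hippocampus point is mouse 8). Every line of the upper row falls from hippocampus to brain stem and every line of the lower row rises, including Fos, whose difference was -0.99 beside 1.77 for Arc.

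Among genes for axons and the neuronal cytoskeleton, 13 measured, 6 were higher in hippocampus, 6 were higher in brain stem and 1 was not called. The share called was 92.3%, against 66.8% of the panel. Islr2, a leucine-rich repeat receptor of growing axons, had the largest hippocampus difference of the panel, with 10.01 to 10.84 (median 10.40) in hippocampus and 5.27 to 6.05 (median 5.59) in brain stem. Every hippocampus sample lay above every brain stem sample, and the difference was 4.80 (SE 0.13, 27.9-fold, adjusted p = 5.01e-09). Rtn4rl1, a Nogo receptor relative (2.64, SE 0.10), and Fgf13, an intracellular regulator of sodium channels (1.58, SE 0.06), followed. Genes of the list that were higher in brain stem included neuronal tubulin Tubb3 (-1.21, SE 0.04), stathmin Stmn1 (-1.03, SE 0.05) and the neurofilament light chain Nefl (-1.26, SE 0.06). Chn2, a regulator of small GTPases, was higher in brain stem (-1.43, SE 0.21), and its difference was -1.28 without mouse 2.

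The list of forebrain transcription factors held 8 genes, of which 6 were higher in hippocampus and 2 in brain stem. The panel shares were 30.9% and 35.8%. Of the 8, Egr1 is also on the list of activity genes, Dlx1 and Dlx2 on that of inhibitory neuron genes and Sall1 on that of homeostatic microglia genes. Tbr1, which specifies cortical and hippocampal glutamatergic neurons, was 7.72 to 8.39 in hippocampus and 2.92 to 4.27 in brain stem (4.20, SE 0.10, 18.4-fold, adjusted p = 1.88e-09). Its brain stem values lay within the range of the Y-linked probes, so the fold depends on the background of the assay. Dlx1 and Dlx2, homeobox factors of forebrain GABAergic interneurons, differed by 3.91 (SE 0.13) and 2.32 (SE 0.22), with brain stem values of 2.19 to 3.96 and 1.87 to 4.04, also within that range. Mef2c, a factor of neuronal activity and maturation, was 11.46 to 12.16 against 9.05 to 9.84 (2.35, SE 0.08). The zinc finger factor Sall1, which microglia express too, was higher in brain stem (-0.44, SE 0.05, adjusted p = 3.23e-05), and so was the T-box factor Eomes (-1.14, SE 0.38, adjusted p = 0.0246), though its ranges of 4.04 to 6.69 and 4.37 to 6.90 overlapped. The call of Eomes was lost without mouse 2 (adjusted p = 0.0548) and also without mouse 12, 22, 28, 30 or 32 in turn.

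Of 9 presynaptic and inhibitory neuron genes, 4 were higher in hippocampus, 2 in brain stem and 3 were not called, near the 66.8% called over the panel. Syn2, a synaptic vesicle phosphoprotein, differed by 1.15 (SE 0.06). The inhibitory synapse adhesion gene Nlgn2 was not called (0.03, SE 0.05, adjusted p = 0.617), and Reln, a secreted guidance protein, was not called either (-0.21, SE 0.15, adjusted p = 0.237).

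Immediate early and activity-dependent genes, which neurons transcribe within minutes to hours of firing, were higher in hippocampus for 8 of 10 measured, with a median difference of 1.29. Of the panel, 30.9% was higher in hippocampus. Nptx1, a pentraxin that clusters AMPA receptors, differed by 2.11 (SE 0.13), Arc, a regulator of receptor endocytosis, by 1.77 (SE 0.14), Homer1, a postsynaptic scaffold, by 1.70 (SE 0.05), and the growth factor Bdnf by 1.69 (SE 0.08). The exception was Fos, a subunit of the AP-1 transcription factor. Fos was 7.96 to 9.18 (median 8.59) in hippocampus and 9.30 to 9.96 (median 9.57) in brain stem, without overlap and higher in brain stem in 9 of 9 mice (-0.99, SE 0.12, adjusted p = 4.04e-05). Its AP-1 partner Jun was 10.61 to 11.14 in hippocampus and 9.12 to 9.81 in brain stem (1.34, SE 0.06, adjusted p = 7.36e-08). The stress-induced factor Atf3 was not called (-0.16, SE 0.14, adjusted p = 0.329).

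Since Fos and Jun encode partners of one dimer and moved opposite ways, the 250 bases before their annotated starts are shown (RefSeq, build GRCm38.p6), with matches to TGACG, the core of the cAMP response element, in capitals on either strand. These letters are contained in the full palindromic element and do not overlap the SOX letters given with the myelin genes. Fos is on the plus strand at chr12:85473640-85473889 and holds 2 matches. Jun is on the minus strand at chr4:95052223-95052472 and holds no match, which says only that these letters are absent from this window.
Fos: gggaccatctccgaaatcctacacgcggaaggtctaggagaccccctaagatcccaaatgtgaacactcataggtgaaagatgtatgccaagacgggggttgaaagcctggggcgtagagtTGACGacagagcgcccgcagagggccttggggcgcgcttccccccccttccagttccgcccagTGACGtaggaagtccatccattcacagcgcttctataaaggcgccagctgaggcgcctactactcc
Jun: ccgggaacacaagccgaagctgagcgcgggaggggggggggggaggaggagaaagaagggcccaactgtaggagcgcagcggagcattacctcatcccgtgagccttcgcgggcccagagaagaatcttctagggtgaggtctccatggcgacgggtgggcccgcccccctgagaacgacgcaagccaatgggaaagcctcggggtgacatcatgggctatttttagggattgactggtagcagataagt
Promoter windows were matched by symbol for 601 of the 770 panel genes. TGACG was present in 4 of 6 matched genes of the activity list, in 22.8% of matched panel genes and in 19.8% of all 27025 genes of the table. A match describes the letters and not a site in use.

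Myelin was the most uniform group in the opposite direction. All 20 measured genes of the myelin sheath and myelin lipids were called higher in brain stem, where 35.8% of the panel was, with differences from -2.16 to -0.30 and a median of -1.30. All 8 measured genes of the oligodendrocyte lineage, the cells that make myelin, were higher in brain stem as well, with a median of -1.17. None of the 8 overlapped between regions, where 17.9% of the panel had brain stem above without overlap. Gjb1, the gap junction protein connexin 32 of myelin, was 8.04 to 8.66 in hippocampus and 10.37 to 10.76 in brain stem (-2.16, SE 0.09, 4.48-fold, adjusted p = 3.46e-08). Mag, an adhesion protein of the innermost myelin layer, was 8.82 to 9.78 against 10.75 to 11.46 (-1.78, SE 0.08). Pmp22, a membrane protein best known from peripheral myelin, differed by -1.71 (SE 0.06). In the lineage, Enpp6, a choline phosphodiesterase of newly formed oligodendrocytes, differed by -1.71 (SE 0.12), Bcas1 by -1.63 (SE 0.07) and Myrf, the transcription factor that switches on myelin genes, by -1.43 (SE 0.06).

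Opalin and Pllp overlapped between regions when mice of both phases were pooled, and each was split by phase within each region. Opalin, a transmembrane protein of oligodendrocytes, was 8.64 to 8.82 in mid-dark and 9.38 to 9.91 in mid-light hippocampus, and 8.82 to 9.07 in mid-dark and 10.06 to 10.43 in mid-light brain stem. Pllp, the myelin proteolipid plasmolipin, was 7.56 to 7.95 and 8.42 to 8.77 in hippocampus, and 8.66 to 9.11 and 9.39 to 10.00 in brain stem, in the same order of phases. Mid-light mice lay above mid-dark mice without overlap in both regions for both genes. This held in the same direction in both regions for 13 panel genes (1.69%), 5 of them higher at mid-light. Within mice the regional difference remained, at -0.30 (SE 0.07, adjusted p = 0.00252) for Opalin and -1.20 (SE 0.06, adjusted p = 7.36e-08) for Pllp.

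**Figure D3:**
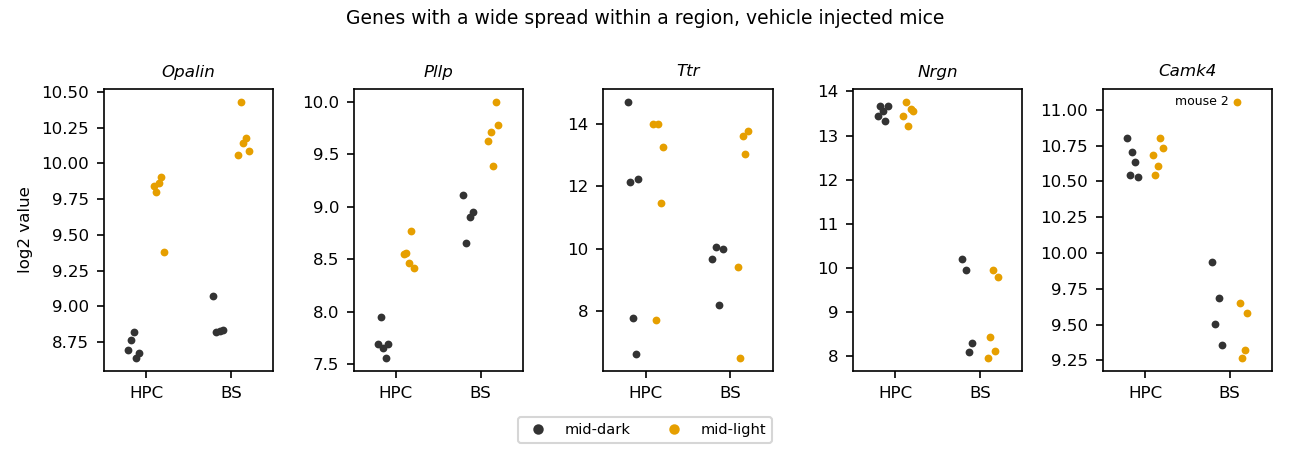
Log2 values (y axis) of 5 genes with a wide spread within a region, in hippocampus (HPC) and brain stem (BS) of vehicle injected mice, each point a mouse (black mid-dark, orange mid-light). Opalin and Pllp separate by phase in both regions, Nrgn in brain stem has mice of both phases in its low and high sets, the high Ttr values of brain stem are all from mid-light mice, and Camk4 has 1 high brain stem value, from mouse 2.

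The SOX family, to which the oligodendrocyte factor Sox10 belongs, recognizes ACAAAG. Sox10 itself was 7.80 to 8.34 in hippocampus and 8.79 to 9.24 in brain stem (-1.03, SE 0.06). Mobp, a small basic protein of compact myelin, was 12.65 to 13.45 in hippocampus and 14.47 to 14.71 in brain stem (-1.53, SE 0.07, adjusted p = 8.42e-08). Its 250 bases before the start, on the plus strand at chr9:120149492-120149741 (RefSeq, GRCm38.p6), are shown because they hold 6 matches on either strand, in capitals.
Mobp: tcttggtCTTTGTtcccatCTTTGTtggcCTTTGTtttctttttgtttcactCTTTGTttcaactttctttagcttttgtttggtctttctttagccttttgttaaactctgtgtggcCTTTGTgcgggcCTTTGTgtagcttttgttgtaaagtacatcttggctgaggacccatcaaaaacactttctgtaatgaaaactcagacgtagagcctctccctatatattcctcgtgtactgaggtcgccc
ACAAAG was present in 7 of 18 matched myelin genes (38.9%), in 18.3% of matched panel genes and in 18.6% of all genes of the table, which is a description of letters only.

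Astrocyte genes were divided, 3 of 12 higher in hippocampus, 7 higher in brain stem and 2 not called, against 30.9% and 35.8% of the panel by direction. Agt, the angiotensin precursor that astrocytes secrete, was 7.31 to 8.25 in hippocampus and 10.27 to 10.69 in brain stem (-2.53, SE 0.11, 5.76-fold, adjusted p = 4.89e-08). S100b, a calcium-binding protein that oligodendrocytes also express, differed by -2.05 (SE 0.06), and Kcnj10, the potassium channel Kir4.1 of both glial types, by -1.81 (SE 0.04). The defining markers were divided too. Aldh1l1 (-0.69, SE 0.04) and Gja1 (-0.48, SE 0.06) were higher in brain stem, and the glutamate transporter Slc1a3 (0.85, SE 0.09) was higher in hippocampus. A further defining marker, the transcription factor Sox9, was not called (-0.13, SE 0.05, adjusted p = 0.0547). The milk fat globule protein Mfge8 (1.62, SE 0.07) was higher in hippocampus.

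Microglia, the resident macrophages of the brain, leaned to hippocampus. Of 13 homeostatic genes, 9 were higher in hippocampus, 3 in brain stem and 1 was not called, with a median difference of 0.46. Panel shares by direction were 30.9% and 35.8%. The purinergic receptor P2ry12 was 9.53 to 10.06 in hippocampus and 8.95 to 9.22 in brain stem (0.78, SE 0.05, adjusted p = 2.85e-07). Fcrls, an Fc receptor-like protein, had the largest difference of the list (1.62, SE 0.07), and the markers Tmem119 (0.51, SE 0.04) and Cx3cr1 (0.57, SE 0.05) did not overlap between regions either. The fructose transporter Slc2a5 was lower in hippocampus, at 4.55 to 5.67 against 5.60 to 6.02 (-0.75, SE 0.15, adjusted p = 0.00177). Its hippocampus values lay partly in the range of the Y-linked probes. Cathepsin S, Ctss, was not called (-0.14, SE 0.06, adjusted p = 0.0627).

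Genes that mark disease-associated microglia were even in number, 4 higher in each region and 2 not called of 10 (80% called, against 66.8% of the panel). The largest difference of the whole panel was Spp1, which encodes osteopontin, a secreted phosphoprotein made by some neurons of the brain stem as well as by activated microglia. Spp1 was 6.75 to 8.22 (median 7.37) in hippocampus and 12.14 to 12.67 (median 12.44) in brain stem, and the difference was -4.97 (SE 0.17, 31.3-fold, adjusted p = 1.18e-08). Of the other 9 markers of the list, 3 were also higher in brain stem, among them the lectin receptor Clec7a at -0.67 (SE 0.19, adjusted p = 0.0123), whose values lay in the range of the Y-linked probes. Higher in hippocampus were 4, among them Cd68, a lysosomal protein (0.69, SE 0.07), and the receptor Trem2 (0.59, SE 0.07). Itgax was not called (0.07, SE 0.19, adjusted p = 0.755). Mertk, a receptor for the engulfment of dying cells, was higher in hippocampus (1.13, SE 0.06).

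Complement genes, of the cascade that tags cells and synapses for removal, were called higher in hippocampus for 4 of 10 and higher in brain stem for 2, near the 66.8% called over the panel. The central component C3 was 5.29 to 6.36 in hippocampus and 7.02 to 7.75 in brain stem (-1.57, SE 0.13, 2.97-fold, adjusted p = 3.45e-06). C4a, which has a close paralog whose transcripts a probe may share, was 9.22 to 9.61 against 10.07 to 10.45 (-0.92, SE 0.04). The receptor subunit Itgam (CD11b) was higher in hippocampus (0.59, SE 0.05), and the inhibitor Serping1 was not called (-0.28, SE 0.16, adjusted p = 0.146). Cd74, the invariant chain of MHC class II, was higher in brain stem in 8 of 9 mice, at 6.41 to 8.26 against 7.95 to 9.10 (-1.24, SE 0.27, adjusted p = 0.00238).

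**Figure D4:**
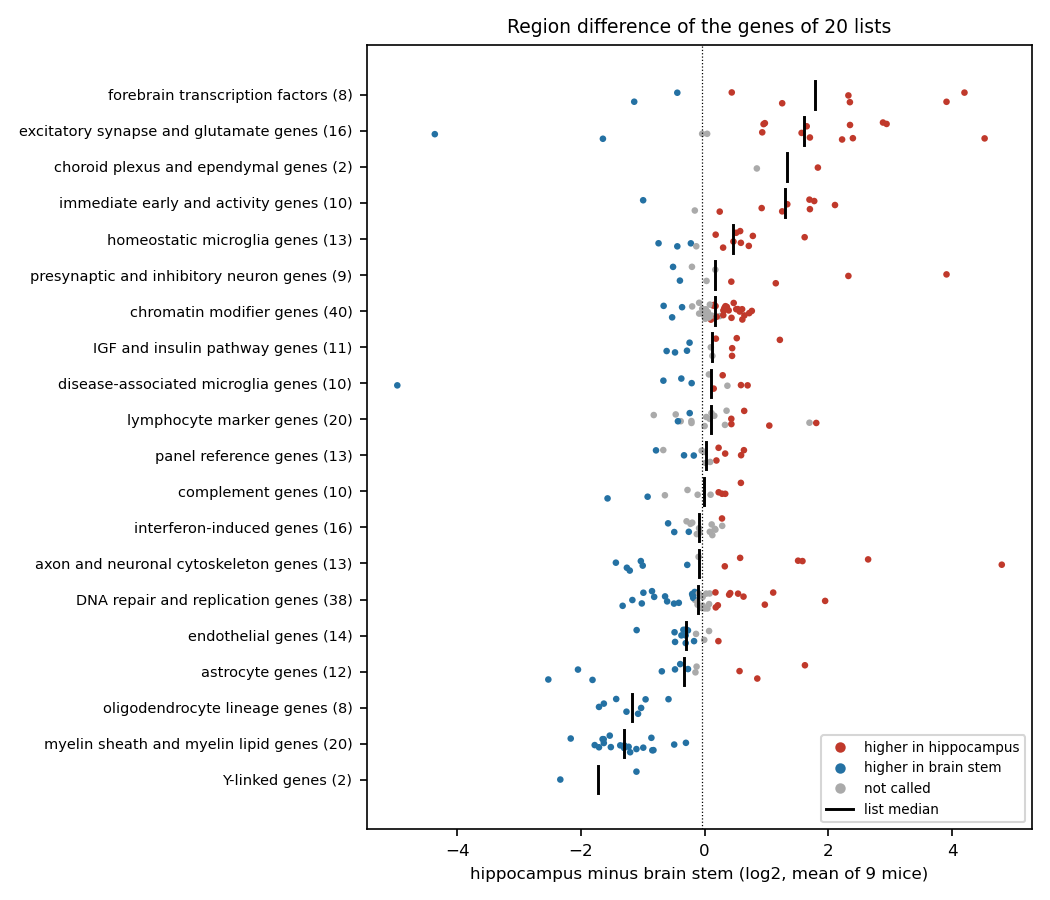
Hippocampus minus brain stem difference (x axis, log2, mean of 9 mice) of the measured members of 20 gene lists (y axis, number measured in parentheses), each point a gene, with the list median as a black bar and the median of all genes as a dotted line; vertical scatter within a list carries no value. The 20 myelin genes and 8 oligodendrocyte lineage genes lie on the brain stem side, and the excitatory synapse genes lie mostly on the hippocampus side except Slc17a6 and Gria4.

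Endothelial genes were higher in brain stem for 10 of 14 and higher in hippocampus for 1, with small differences (median -0.30). For the panel these shares were 35.8% and 30.9%. The junction protein Jam2 differed by -1.10 (SE 0.05), the glucose transporter Slc2a1 by -0.49 (SE 0.05), Ly6a by -0.48 (SE 0.06) and Pecam1 by -0.34 (SE 0.06). The tight junction gene Cldn5 was not called (-0.14, SE 0.06, adjusted p = 0.0556).

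Of 2 choroid plexus and ependymal genes, 1 was higher in hippocampus and 1 was not called. Over the panel 66.8% of genes were called and 30.9% were higher in hippocampus, so 2 genes say little about the list. The choroid plexus marker Ttr, the transthyretin carrier protein, ranged widely within each region, from 6.62 to 14.71 in hippocampus and from 6.49 to 13.77 in brain stem, and was not called (0.84, SE 0.85, adjusted p = 0.398). In brain stem the 4 mid-dark mice were at 8.21 to 10.05 and the mid-light mice at 6.49 to 13.77 (median 13.04), while in hippocampus both phases held low and high values. Trp73, a p53 relative of ependymal cells and some hippocampal neurons, was 6.54 to 7.01 in hippocampus and 4.04 to 5.64 in brain stem (1.83, SE 0.12). Its brain stem values lay partly in the range of the Y-linked probes.

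Lymphocyte markers and interferon-induced genes were for the most part not called, with 35% and 25% called against 66.8% of the panel. Of 20 lymphocyte markers, 5 were called higher in hippocampus and 2 in brain stem, and all 20 had both medians in the range of the Y-linked probes. The hippocampus count was 3 without mouse 4, 6 or 28, and the brain stem count was 1 without mouse 2, 6, 10, 12, 30 or 32. Trat1, a T cell receptor adaptor, was 3.86 to 5.36 against 1.87 to 4.13 (1.80, SE 0.24, adjusted p = 9.93e-05), and the defining T cell gene Cd3d was not called (-0.21, SE 0.14, adjusted p = 0.189). Of 16 interferon-induced genes, 1 was higher in hippocampus and 3 in brain stem, including the RNA sensor Ifih1 (-0.49, SE 0.08). The hippocampus count was 0 without mouse 4 and 2 without mouse 10 or 12. Uty and Kdm5d themselves were called higher in brain stem, at -2.33 (SE 0.56, adjusted p = 0.00447) and -1.10 (SE 0.26, adjusted p = 0.00366), although their transcripts are absent from female mice. Of the 120 called genes with a difference of at least 1, 7 had both medians in this low range.

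Receptor, enzyme and signalling genes gave further large differences. Ptgs2 (cyclooxygenase 2), the inducible enzyme of prostaglandin synthesis, was 9.37 to 10.21 in hippocampus and 4.63 to 5.62 in brain stem (4.51, SE 0.17, 22.8-fold, adjusted p = 1.86e-08). Il1r1, the signalling receptor of interleukin 1, was 9.01 to 9.51 against 6.86 to 7.39 (2.27, SE 0.07, 4.82-fold). Tnfrsf25, a death domain receptor of the TNF family, was 6.57 to 8.55 against 3.80 to 4.72 (3.48, SE 0.15), and Hrk, a pro-apoptotic BH3-only protein of neurons, was 8.91 to 9.38 against 5.42 to 6.21 (3.30, SE 0.09). The brain stem values of Tnfrsf25 all lay in the range of the Y-linked probes, so its difference depends on the background of the assay. Those of Ptgs2 lay partly in that range, so its fold depends in part on that background too. In each of these 4 genes every hippocampus sample lay above every brain stem sample. The p75 neurotrophin receptor gene Ngfr was higher in brain stem, at 3.91 to 5.05 in hippocampus and 5.08 to 5.98 in brain stem (-1.16, SE 0.15), with every hippocampus value in the range of the Y-linked probes. Cholesterol hydroxylases were opposed, Cyp7b1 higher in hippocampus (1.62, SE 0.05) and Cyp27a1 higher in brain stem (-1.69, SE 0.11). Cd83, a surface protein best known from dendritic cells, was 8.15 to 8.68 in hippocampus and 10.55 to 10.92 in brain stem (-2.36, SE 0.05, 5.15-fold), and Arhgap24, a GTPase-activating protein, differed by -1.96 (SE 0.10). Fkbp5, a glucocorticoid-induced chaperone, was higher in hippocampus (1.19, SE 0.06).

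Genes of nuclear processes were called at shares near the 66.8% of the panel, both directions together. Of 40 chromatin modifiers, 22 were higher in hippocampus and 3 in brain stem, against 30.9% and 35.8% of the panel, so by direction the list leaned to hippocampus. The other 15 were not called, and none of the 40 reached a difference of 1. The polycomb gene Bmi1 (0.76, SE 0.04) and the histone demethylase Kdm4b (0.72, SE 0.05) were higher in hippocampus, and the polycomb methyltransferase Ezh2 was higher in brain stem (-0.53, SE 0.07). Of 38 DNA repair and replication genes, 10 were higher in hippocampus and 14 in brain stem, where 30.9% and 35.8% of the panel were. The helicase subunit Mcm6 was 6.39 to 7.43 against 4.78 to 5.67 (1.95, SE 0.12), with brain stem values partly in the range of the Y-linked probes. The polymerase PARP1 gene, Parp1, differed by 1.11 (SE 0.06). DNA ligase Lig1 was 6.28 to 7.20 against 7.87 to 8.20 (-1.33, SE 0.10), and Bard1, the partner of Brca1, differed by -1.17 (SE 0.07). In insulin-like growth factor signalling, 5 of 11 genes were higher in hippocampus and 4 in brain stem (81.8% called, against 66.8% of the panel). The phosphatidylinositol 3-kinase subunits Pik3r2 (1.22, SE 0.06) and Pik3ca (-0.61, SE 0.03) were on opposite sides. The receptor gene Igf1r was not called (0.10, SE 0.05, adjusted p = 0.0799).

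The 13 reference genes of the panel were not flat between regions. In hippocampus 5 were higher, in brain stem 3, and 5 were not called, with a median difference of 0.02. The share called, 61.5%, was near the 66.8% of the panel. Aars, an alanyl-tRNA synthetase, differed most among the called ones (-0.79, SE 0.04), followed by Xpnpep1 (0.63, SE 0.05) and the TATA-binding protein Tbp (0.59, SE 0.06). When each sample was centred on these genes, 495 genes were called, 492 of them among the 514.

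The last comparison within vehicle injected mice was by time of day. The mid-dark and mid-light differences were compared within the same fit, and no gene passed adjustment with limma (0%), 37 genes had an unadjusted p value under 0.05 (4.81%) and 1 gene passed by ordinary p values. The smallest p values belonged to Ncr1, a natural killer cell receptor at the level of the Y-linked probes (-0.69 at mid-dark, 0.21 at mid-light), and to Apoe, the main lipid carrier of the brain (0.29 higher in hippocampus at mid-light, with no difference at mid-dark), with an adjusted p value of 0.363 for each. Apoe lay near the top of the shared distribution, where samples take tied values. All 5 mid-light hippocampus samples were at 14.23, the other samples lay at 13.90 to 14.01, and the difference was 0 in each of the 4 mid-dark mice. Its spread and p value rest on these ties. Among the largest differences, Islr2 was at 4.76 (mid-dark) against 4.85 (mid-light) and Spp1 at -4.98 against -4.95. Others were farther apart between phases, with Dlx1 at 3.46 against 4.36 and Tbr1 at 4.57 against 3.83, though neither passed adjustment.

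The tumor-bearing mice, injected with 67NR mammary carcinoma cells, are other animals assayed in the same way, 10 with both regions. In them 539 genes were called (70%), and 469 of the 514 genes were called there in the same direction. Of the other 45, 5 had the opposite sign. Spp1 differed by -5.02, Slc17a6 by -4.17, Islr2 by 4.64 and Nrgn by 4.42 in these mice. The regional difference itself changed with tumor for 1 gene (0.13%), with 32 at an unadjusted p value under 0.05 (4.16%). Il1r1 differed by 1.63 in tumor-bearing mice against 2.27, a change of -0.64 (SE 0.11, adjusted p = 0.0238), and the gene was called in 11 of 25 alternatives. Its call was lost without the pairing, and the adjusted p value ranged from 0.00498 to 0.134 over the alternatives. Among the brain stem samples, 5 of 10 from tumor-bearing mice and 2 of 9 from vehicle injected mice had a 260/280 ratio under 1.9 (lowest 1.34 and 1.72), and the part of RNA purity in the change was not tested. Ptgs2 moved by -0.81 (adjusted p = 0.392).

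**Figure D5:**
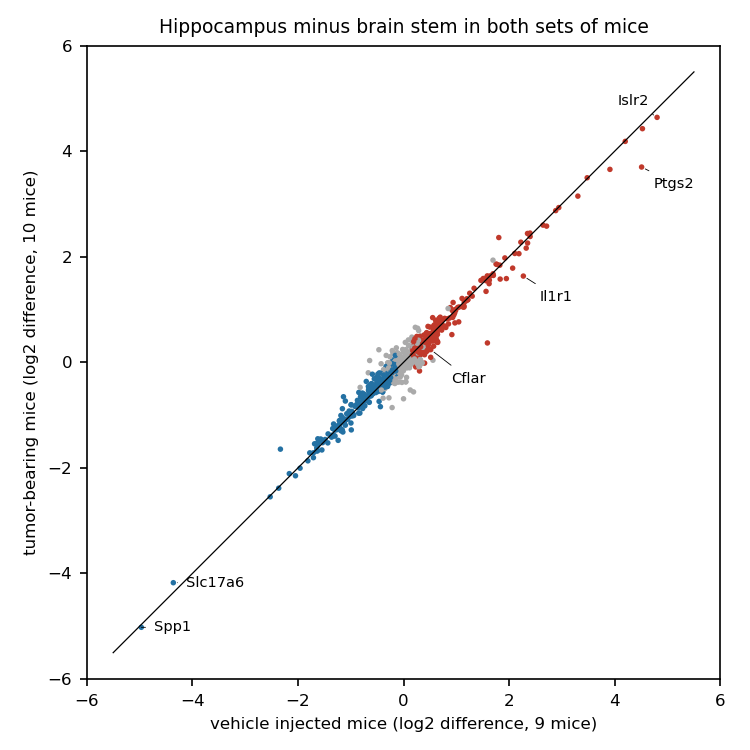
Hippocampus minus brain stem difference of each panel gene in vehicle injected mice (x axis, log2, 9 mice) and in tumor-bearing mice (y axis, log2, 10 mice); red genes were called higher in hippocampus, blue higher in brain stem and grey not called in vehicle injected mice, and the line marks equality. Il1r1 lies below the line, at 2.27 and 1.63.

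The hypothalamus of the same vehicle injected mice (7 samples) gave a place to each regional difference. Its mean lay between both regions for 42 of the 56 genes higher in hippocampus by at least 1 and for 54 of the 64 higher in brain stem. It was below both for 12 of the 56, among them Slc17a7 (mean 7.75), Arc (7.53) and Il1r1 (6.86), and above both for 2, Dlx1 (8.44) and Dlx2 (6.76). It was above both for 6 of the 64, among them Slc17a6 (13.23), Agt (11.32) and Cd83 (11.16), and below both for 4. These places compare means only and were not tested. For Il1r1 the hypothalamus mean was at the level of the lowest brain stem sample (6.86). Among the myelin genes, Mag (9.64) and Gjb1 (8.78) of the hypothalamus were nearer to the hippocampus than to the brain stem.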

How the data were processed

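RNA of hippocampus and brain stem was assayed on the nanoString nCounter Mouse Neuroinflammation Panel. The authors subtracted negative control background and normalized to positive controls and codeset content by geometric mean (nSolver version 3), then applied quantile normalization (Partek GS version 6.6), and deposited log2 values, so the depth per sample is unknown and no counting interval can be given. They excluded outliers by raw data before normalization, so mouse 8 lacks a brain stem sample. The 260/280 and 260/230 ratios and RNA concentrations come from the sample labels.

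Within-mouse differences (hippocampus minus brain stem, 9 pairs) were fitted with limma 3.58.1 in R 4.3.3 with phase as a covariate coded 0.5 and -0.5, without a filter, and p values were adjusted by Benjamini-Hochberg over all 770 genes. A gene was called at an adjusted p under 0.05. Regions were paired because they came from the same animal. Deviations from the region and phase means correlated between the regions of a mouse from -0.133 to 0.357. Tumor-bearing mice were added in a joint fit of 19 pairs, with the tumor by region interaction. Each mouse is a separate animal. The scripts were tested on simulated data.

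Named were the 12 largest differences per direction with the same sign in all mice, up to 3 members of each of 20 gene lists by size, the best expressed member of each list that was not called, and the 2 genes with the smallest p values for phase and for tumor. A further 41 genes were chosen after their values were seen: Mobp, Mog, Opalin, Pllp, Ugt8a, Sox10, Gria1, Gria2, Gria4, Grin2a, Camk4, Chn2, Reln, Fos, Egr1, Jun, Bdnf, Eomes, Sall1, Stmn1, Tubb3, Nefl, Tmem119, Cx3cr1, Trem2, Mertk, Ezh2, Parp1, Ppp3cb, Ppp3r1, Ngfr, Aldh1l1, Gja1, Slc1a3, Mfge8, Pecam1, Cd74, Fkbp5, Cyp27a1, Cyp7b1 and B3gnt5. Some genes that the rule names are not reported here. The comparison, its members and the lists were chosen with earlier results of these data known. Some genes are on several lists, so the counts of different lists are not independent. Alternatives were no pairing, mouse as a random block, ordinary p values, a trended robust prior, a mean log2 filter of 5, centring on reference genes or medians, phase left out, RNA purity and leaving out each mouse. Figures were drawn with matplotlib 3.10.9.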

Additional observations from a re-analysis of the deposited data

Results flagged for a closer look

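In 402 groups of 9 or 10 values of the named genes, 19 had a lowest or highest value set apart from the rest by Dixon's criterion, where a rate of 1 in 20 gives 20.1, and 11 of the 19 came from mouse 2. Of those 11, 9 are of genes chosen after their values were seen, so the number from mouse 2 is partly set by that choice. In the brain stem of mouse 2 the level was set apart for Camk4 (11.06, nearest 9.94), Chn2 (11.44, nearest 10.31), Reln (9.78, nearest 9.02), Gria4 (12.83, nearest 12.52), Fgf13 (10.72, nearest 10.92), Slc17a6 (12.52, nearest 12.73) and Tmem119 (8.69, nearest 8.92). The difference between regions of mouse 2 was set apart for Camk4 (-0.37, nearest 0.86), Reln (-1.39, nearest -0.35), B3gnt5 (-2.83, nearest -1.36) and Ezh2 (-0.99, nearest -0.61). The RNA of that sample had a 260/280 ratio of 1.72, and the part of RNA purity in these values was not tested.

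Other values set apart were low probes in single mice. Asb10, a reference gene of the panel, was -0.37 in the hippocampus of mouse 22 (nearest 2.79), with a difference of -4.08 (nearest -0.81). Cd6 was 3.38 in the hippocampus of mouse 4 (nearest 4.56) and 2.46 in the brain stem of mouse 10 (nearest 3.52). Dlx2 was 1.87 in the brain stem of mouse 10 (nearest 3.17), with a difference of 4.19 (nearest 2.54), and Itgax was 2.70 in the brain stem of mouse 12 (nearest 3.46). Above the low range, Pecam1 was 8.96 in the hippocampus of mouse 8 (nearest 9.19).

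The difference between regions changed with tumor for Il1r1, by -0.64 in tumor-bearing against vehicle injected mice (limma, adjusted p = 0.0238), and the call held in 11 of 25 alternatives. A 260/280 ratio under 1.9 was found in 5 of 10 brain stem samples of tumor-bearing mice and in 2 of 9 of vehicle injected mice, and its part was not tested. In vehicle injected mice its medians were 9.30 in hippocampus and 7.04 in brain stem.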

How the results depend on the processing

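The number of genes called between regions, 514, ranged from 481 (without the mice of low RNA purity) to 544 (mouse as a random block), and from 494 to 510 when each mouse was left out. Without pairing (no replicate block), 526 genes were called, 495 of them among the 514. For phase, the count of 0 became 1 with mouse as a random block and 1 by ordinary p values. For the difference between tumor groups, the count of 1 became 0 without pairing, by ordinary p values and when centred on reference genes, and ranged from 0 to 2 when each mouse was left out, with 0 without mouse 5, 6, 9, 10, 12, 13, 22, 23, 28, 29 or 30 and 2 without mouse 19. The cause was not tested. Over 2399 alternative values of the 134 named genes, 15 turned direction, all in genes that were not called. Without pairing Fam104a was 0.00064 and Lars -0.0054, and with mouse as a random block Lars was -0.0022. Without the mice of low RNA purity Itgax was -0.087 and Klrk1 -0.071. When each mouse was left out, Fam104a ranged from -0.0285 to 0.0366, Itgax from -0.13 to 0.17, Klrk1 from -0.076 to 0.12, Lars from -0.0027 to 0.0378, Nlgn2 from -0.0076 to 0.0741 and Setd2 from -0.0018 to 0.0344. The filter at a mean log2 of 5 removed both Y-linked genes. Without counts, the precision of low genes cannot be set apart from background.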
